A study of Mus musculus with 26 samples.

Results

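The skeletal myosin heavy chain cluster of the mouse was read as a window of 340 kb on chromosome 11 (66860000 to 67200000, build mm9), which holds Myh3, Myh2, Myh1, Myh4 and Myh8 in this order. All peaks of the 16 deposited lists with at least 1 base in the window were taken as members, without use of their scores. They were 156 peaks of 763552 in all lists: 41 SMC3 peaks, 101 ATAC peaks and 14 ChIRP summits. The cells were of the mouse line C2C12, grown as myoblasts (MB) in 20% serum or fused to myotubes (MT), fibre-like cells with many nuclei, in 2% horse serum. SMC3 ChIP-seq was done in MT transfected with siDRR, in MT with no transfection given in the labels, and in MB, so siDRR and transfection itself cannot be told apart in these lists. ATAC-seq, which marks open chromatin by transposase insertion, was done in MT transfected with siDRR, with siSmc3 or with a control. ChIRP-seq, in which labelled probes fish out an RNA together with its bound chromatin, was done in MT with probe pool 1 and probe pool 2 against the DRR enhancer RNA. Each group had 2 libraries of the same line, and nothing in the labels says that they came from separate cultures, so their spread may be only technical.

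Sarcomeric myosin heavy chains are the motor subunits of the thick filament, and each gene of the cluster gives a fibre its own contraction speed. Myh3 encodes the embryonic chain and Myh8 the perinatal one, both used in developing and regenerating muscle. Myh2, Myh1 and Myh4 encode the fast adult chains IIa, IIx and IIb. SMC3 is a core subunit of cohesin, the ring that holds chromatin loops and sister chromatids together. The DRR RNA is transcribed from the distal regulatory region, an enhancer of the myogenic regulator Myod1. The question of the study was whether this RNA guides cohesin, so the cluster was read for where the 3 measurements lay and for which calls were missing after either knockdown. No transcript level of any myosin gene was analysed here.

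The lists give positions and a score per peak but no reads, so the depth behind each peak is unknown. Scores served to rank peaks inside their own list. The rank percentile of a peak says where its score falls in that list, with 100 the best, so a list as a whole has its median near the middle of that scale by construction. Lists of different length do not give comparable percentiles, and a difference between them is not a change in binding. SMC3 lists held 8384 to 33154 peaks, ATAC lists 58138 to 103056 and ChIRP lists 3776 to 68812. The shortest list of each assay was a replicate 1: of MT siDRR for SMC3, of MT control for ATAC and of pool 1 for ChIRP.

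The gene starts themselves are shown first, because the 5 members differ there in a way that none of the peak lists was used to find. The 250 bases before each start were taken from RefSeq in build GRCm38.p6, where all 5 members were matched and all lie on the plus strand. They lie at chr11:67078050-67078299 for Myh3, chr11:67170777-67171026 for Myh2, chr11:67199852-67200101 for Myh1, chr11:67237562-67237811 for Myh4 and chr11:67276874-67277123 for Myh8. These positions belong to another build than the peak lists and cannot be set beside the peak positions below, which are all mm9. Capitals mark the TATA box letters TATAAA on either strand, the E-box letters CAGCTG, and a run of 14 bases that Myh2, Myh1, Myh4 and Myh8 share; on the minus strand the TATA letters read as TTTATA.
Myh3: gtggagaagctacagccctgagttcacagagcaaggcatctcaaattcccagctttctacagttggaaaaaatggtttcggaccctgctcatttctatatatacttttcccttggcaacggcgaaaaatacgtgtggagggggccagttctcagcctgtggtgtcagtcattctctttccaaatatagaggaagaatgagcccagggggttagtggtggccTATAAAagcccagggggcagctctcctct
Myh2: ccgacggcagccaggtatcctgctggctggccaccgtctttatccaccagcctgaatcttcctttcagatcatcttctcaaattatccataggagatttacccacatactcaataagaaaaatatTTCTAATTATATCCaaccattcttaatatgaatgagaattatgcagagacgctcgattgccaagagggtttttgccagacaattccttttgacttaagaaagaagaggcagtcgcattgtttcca
Myh1: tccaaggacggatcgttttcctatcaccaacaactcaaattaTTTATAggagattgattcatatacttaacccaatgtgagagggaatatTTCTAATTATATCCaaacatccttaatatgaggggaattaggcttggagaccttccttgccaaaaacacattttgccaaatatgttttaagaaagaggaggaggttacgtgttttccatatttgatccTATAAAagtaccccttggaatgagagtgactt
Myh4: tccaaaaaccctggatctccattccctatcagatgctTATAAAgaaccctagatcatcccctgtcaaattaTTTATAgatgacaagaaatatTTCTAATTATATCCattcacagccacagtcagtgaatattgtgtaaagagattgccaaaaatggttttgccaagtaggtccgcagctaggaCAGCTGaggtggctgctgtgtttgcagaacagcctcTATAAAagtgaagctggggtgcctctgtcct
Myh8: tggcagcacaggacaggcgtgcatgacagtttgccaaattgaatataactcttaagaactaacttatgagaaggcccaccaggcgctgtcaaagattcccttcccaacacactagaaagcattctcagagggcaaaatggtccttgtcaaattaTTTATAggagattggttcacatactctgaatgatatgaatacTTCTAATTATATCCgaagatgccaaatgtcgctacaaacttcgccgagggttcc
The shared run, TTCTAATTATATCC, was the longest one common to the starts of Myh2, Myh1, Myh4 and Myh8. It began 125 bases before the start in Myh2, 160 in Myh1, 158 in Myh4 and 54 in Myh8. Of 32851 promoter windows of the same length in the table, searched on both strands, 4 held it (0.0122%), and these 4 genes account for all of them. The longest run that the embryonic gene Myh3 shared with all the others was 7 bases, TCAAATT, found in 3.06% of windows. The run was picked because it is shared, so these counts describe it and test nothing.

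Short motifs were counted in the same windows on both strands. The E-box CANNTG, the class of site that MyoD family factors bind, occurred in Myh3 once, in Myh4 at 2 places and in Myh8 once, with none in Myh2 or Myh1; 66.2% of all windows hold it. The E-box form CAGCTG, which is one case of CANNTG, occurred in Myh4 alone, against 13.0% of all windows, and the form CACCTG occurred in none of the 5, against 17.2%. The TATA box letters were present in Myh3, Myh1, Myh4 and Myh8, against 12.4% of all windows. In Myh8 the only match was on the minus strand. One strict form of the MEF2 site was in none of the 5 and in 0.140% of all windows. A match is a description of these letters and not a site, and a missing one says only that the letters are not in this window.

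No annotation in build mm9 was used here, so no peak is assigned to a gene, and peaks are named by position. In RefSeq the neighbours in order of gene start are Sco1, Myh3, Mir6923, 2310065F04Rik, Gm31285, Myh2, Myh1, Myhas, Myh4, Myh8 and a tRNA gene. This order was read from the gene before Myh3 to the first entry after Myh8, so genes farther on are not listed.

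The window held more SMC3 peaks and more ATAC peaks than most stretches of its length in every library, and its ChIRP summits were close to the median. SMC3 peaks in it numbered 3 and 8 in the MT siDRR libraries, 6 and 8 in MT, and 9 and 7 in MB. These counts were higher than those of 72.4% to 90.3% of 7751 tiles of the same length on the chromosomes 1 to 19 and X, where the median tile held 0 to 3 SMC3 peaks. The stretches of 340 kb on either side held 3 to 7 SMC3 peaks before the window and 2 to 4 after it.

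ATAC peaks in the window numbered 13 and 21 in the siDRR libraries, 19 and 17 with siSmc3, and 11 and 20 in the control. The counts were higher than those of 61.1% to 81.2% of tiles, whose median was 6 to 12. The stretches of 340 kb on either side held 5 to 15 ATAC peaks before the window and 12 to 22 after it. The stretch after held more than the window in replicate 1 of the control (15 against 11) and replicate 2 of siSmc3 (22 against 17). In the other ATAC lists both stretches held fewer than the window. ChIRP summits numbered 0 and 10 for pool 1, against 2 and 2 for pool 2, where the median tile held 0, 9, 2 and 2 in the same order of libraries.

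**Figure D1:**
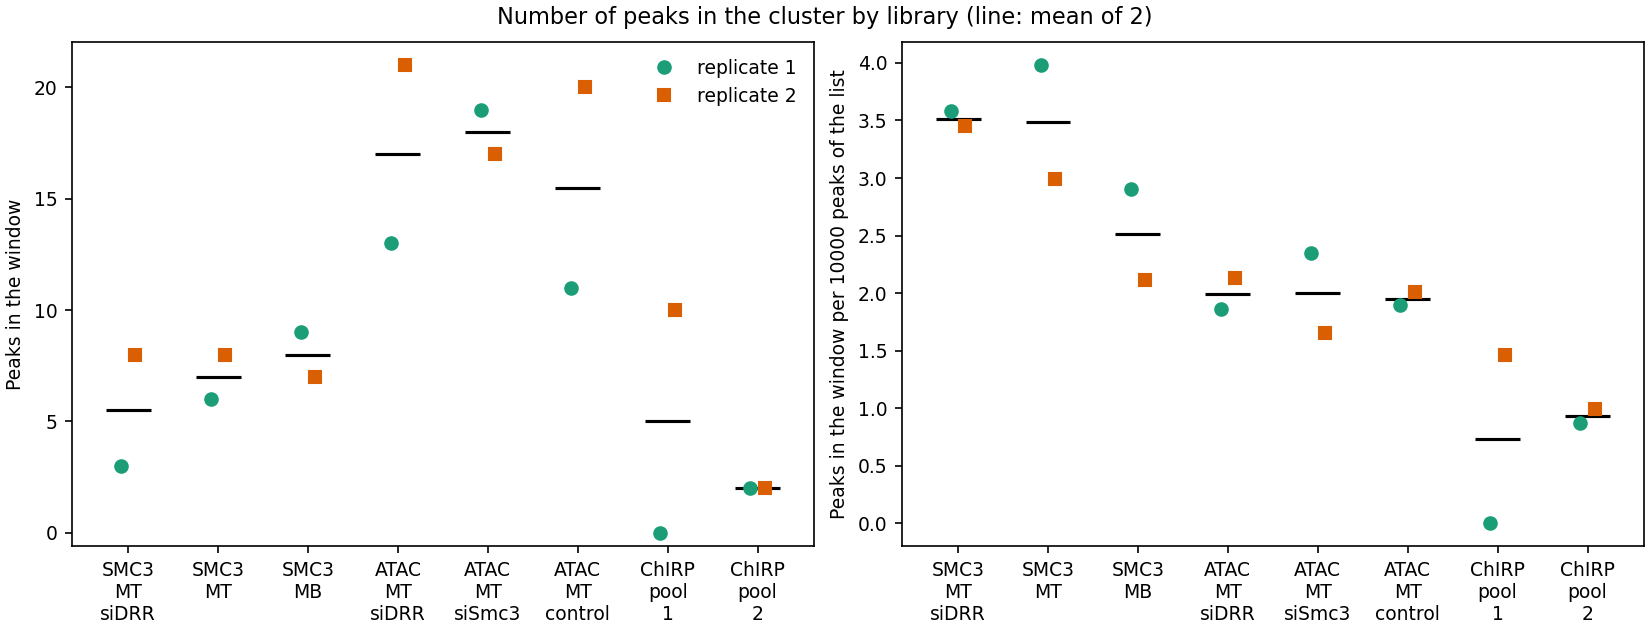
Peaks in the window by library, as a number (left) and per 10000 peaks of the library's own list (right); circles are replicate 1, squares replicate 2 and the line is the mean of the 2. The 2 libraries of a group often lie farther apart than the group means: MT control ATAC had 11 and 20 peaks.

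None of the 5 group contrasts in these numbers exceeded the spread between libraries. SMC3 peaks averaged 7 ± 1.41 in MT and 8 ± 1.41 in MB (SD, n = 2 each; p = 0.667, two-sided exact permutation test). They averaged 5.5 ± 3.54 in MT siDRR against the 7 ± 1.41 of MT (n = 2 each; p = 1, same exact test). ATAC peaks averaged 17 ± 5.66 with siDRR and 15.5 ± 6.36 in the control (n = 2 each; p = 0.667, exact permutation test). With siSmc3 they averaged 18 ± 1.41, against the same control (n = 2 each; p = 1, exact permutation test). ChIRP summits averaged 5 ± 7.07 for pool 1 and 2 ± 0 for pool 2 (n = 2 each; p = 1, exact permutation test). With 2 libraries against 2 the smallest p this test can give is 0.333, so no number of peaks could have passed. Per 10000 peaks of the list, MT SMC3 averaged 3.49 ± 0.70 and MB 2.51 ± 0.56, the opposite order to the raw numbers.

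Cohesin lay in 9 regions, and all 9 were called in at least 2 of the 6 SMC3 libraries, where 70.5% of the 43783 SMC3 regions of the genome were. They are numbered 1 to 9 along the chromosome. Sites 1 to 5 lay together at 66893337 to 66894366, 66898469 to 66899783, 66914863 to 66915881, 66923302 to 66924466 and 66925139 to 66927071. Site 6 stood alone at 67048953 to 67049876. Sites 7 to 9 lay at 67163536 to 67164728, 67186480 to 67187499 and 67189497 to 67190548. Sites 2, 5 and 7 were called in all 6 libraries, 33.3% of the regions here against 16.1% in the genome.

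**Figure D2:**
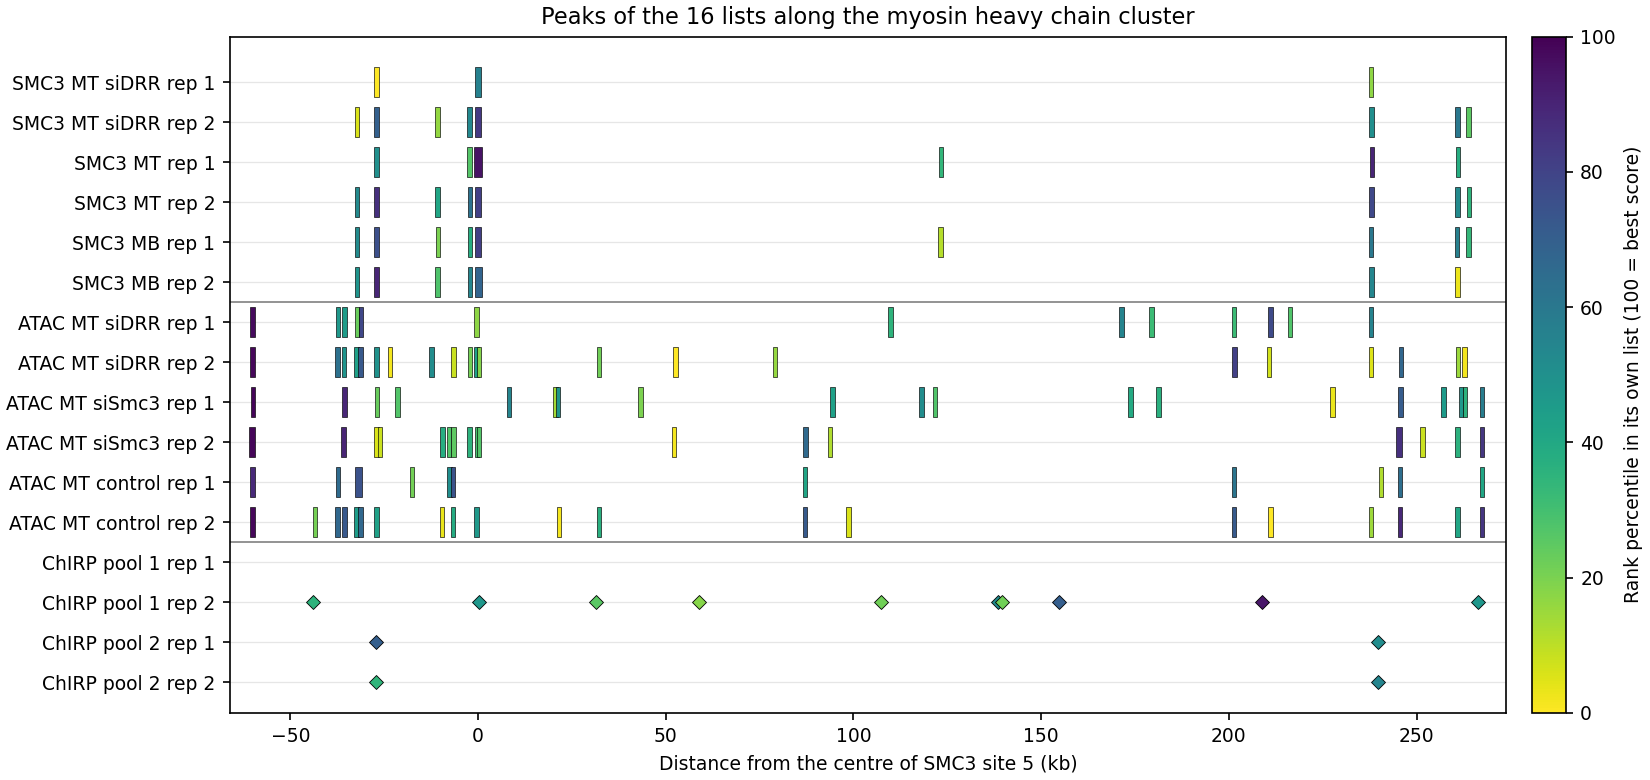
Peaks of the 16 lists along the window, in kb from the centre of SMC3 site 5; bars are SMC3 and ATAC peaks (narrow ones are widened to be visible), diamonds are ChIRP summits, and colour is the rank percentile in the peak's own list. SMC3 peaks stand in a group on the left and a group on the right, with a single site between them. ATAC peaks and the summits of pool 1 also fall in the space between, where ATAC peaks had the lower median percentile in each ATAC list.

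Between sites 5 and 7 stretched 236 kb (66927072 to 67163535), 69.5% of the window, with no SMC3 region that all 6 libraries called. The only SMC3 peaks in it were those of site 6, in replicate 1 of MT at a percentile of 34.1 and in replicate 1 of MB, where it ranked lower. The stretch thus held 2 of the 41 SMC3 peaks, 32 of the 101 ATAC peaks and 7 of the 14 ChIRP summits. All 7 of these summits came from replicate 2 of pool 1. This stretch was chosen by its lack of SMC3 regions called in all 6 libraries, so its low SMC3 share follows largely from that choice. In each of the 6 ATAC lists the median percentile was lower inside the stretch than in the rest of the window. From 67013778 to 67127019, 113 kb, no ATAC region was called in 2 or more libraries. Of 92445 such ATAC gaps in the genome, 96.9% were smaller. An SMC3 gap of 236 kb is not rare: 68.3% of the 7048 gaps between regions called in all 6 libraries were smaller, with a median of 128 kb. Between SMC3 regions called in 2 or more libraries, the largest gap of the window was 122 kb (66927072 to 67048952). Of 30853 such gaps in the genome 87.2% were smaller, with a median of 28.5 kb.

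By the mean percentile over the 6 lists, site 5 ranked highest and site 2 next, but site 2 stood above site 5 in replicate 2 of MT and in replicate 2 of MB. Site 5 had percentiles of 56.6 and 83.2 in MT siDRR, 95.1 and 80.9 in MT, and 81.4 and 68.3 in MB. Site 2 had percentiles of 0.256 and 69.6 in MT siDRR, 50.3 and 86.1 in MT, and 75.7 and 89.3 in MB. At both sites the lowest value was that of the shortest list, replicate 1 of MT siDRR.

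Site 7, at the other end of the window, had percentiles of 16.8 and 50.7 in MT siDRR, 89.6 and 78.2 in MT, and 59.9 and 54.3 in MB. The MT values were the highest at this site, but how often SMC3 regions of the genome show such an order was not counted. Whether the higher MT values mean more cohesin cannot be read from ranks in lists of different length.

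Sites 4 and 8 were called in every library but replicate 1 of MT siDRR. Site 4 had 53.3 in replicate 2 of MT siDRR, 26.9 and 62.3 in MT, and 38.2 and 53.9 in MB. Site 8 had 60.0 in replicate 2 of MT siDRR, 38.0 and 52.5 in MT, and 56.9 and 2.86 in MB. The libraries of a group thus differed at site 8 by more than the groups did.

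The other sites were weak or patchy. Site 1 had 5.76 in replicate 2 of MT siDRR, 52.7 in replicate 2 of MT, and 52.2 and 48.1 in MB. Site 3 had 16.1, 40.8, and 20.0 and 28.0 in the same libraries. Both were missing from replicate 1 of MT siDRR and from replicate 1 of MT, the 2 shortest SMC3 lists. Site 9 had 25.2 in replicate 2 of MT siDRR, 35.2 in replicate 2 of MT and 33.8 in replicate 1 of MB.

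**Figure D3:**
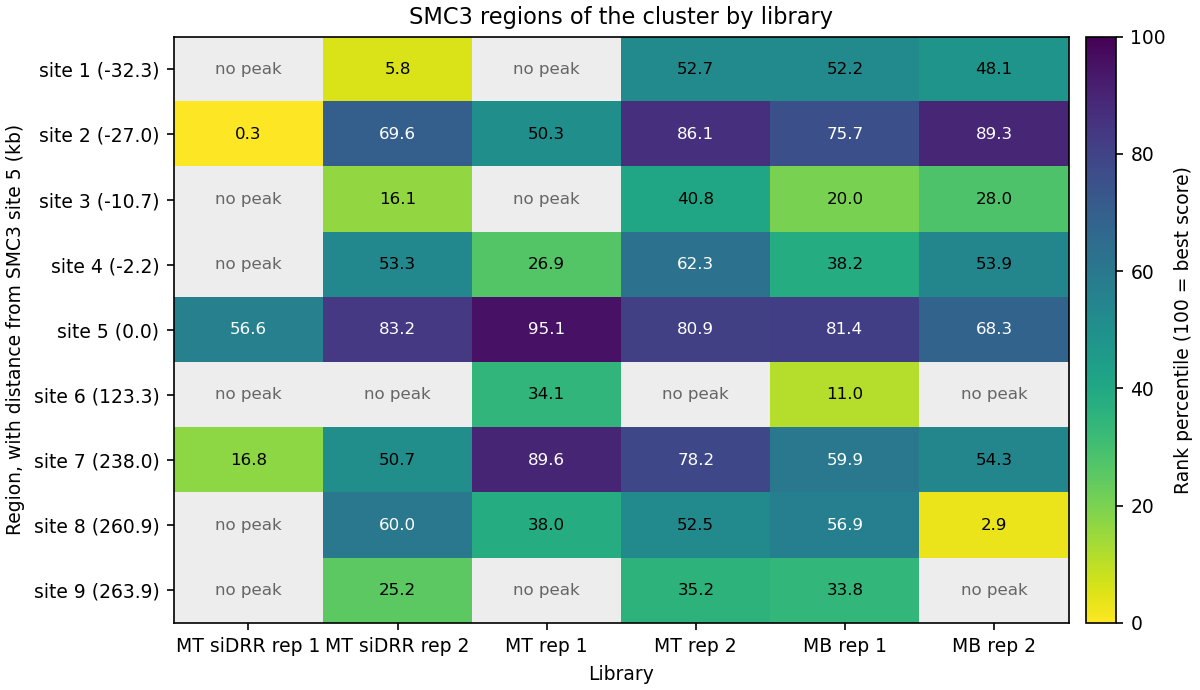
Rank percentiles of the 9 SMC3 regions (rows, with their distance from site 5 in kb) in the 6 libraries (columns), where grey means no peak. Sites 2, 5 and 7 have a peak in every library, and replicate 1 of MT siDRR has a peak at those 3 sites only.

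On differentiation, each cohesin region that both myoblast lists held was found in at least 1 myotube list. Of 7 regions called in both MB libraries, 0 were missing from both MT libraries, where 21.7% of 25207 such regions of the genome were. None of 5 regions called in both MT libraries was missing from both MB libraries, against 2.43% of 13837. Sites 2, 4, 5, 7 and 8 were called in all 4 libraries, 5 of 9 regions against 30.6% of 42567. With 7 and 5 regions the shares can hardly be told from the genome's. Leaving out replicate 2 of MT made 2 regions, sites 1 and 3, count as missing from MT. With lists of equal length (15056 peaks), 1 region, site 4, counted as present in MT only, and 2 regions were called in all 4 libraries.

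After siDRR, no cohesin region was missing from both libraries either. Of 5 regions called in both MT libraries, 0 were called in neither MT siDRR library, against 6.45% of 13876 in the genome. Of 3 called in both MT siDRR libraries, 0 were new, against 0.502% of 7969. Sites 2, 5 and 7 were called in all 4 libraries, 3 of 9 against 23.2% of 30797. The outcome rests on replicate 2 of MT siDRR: without it, sites 4 and 8 counted as missing, and without replicate 2 of MT, site 6 did.

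ATAC peaks merged into 49 regions over 6 libraries, and 28 of them (57.1%) were called in 1 library, close to the 60.1% of the 231567 ATAC regions of the genome. Of the SMC3 regions, 0 of 9 in the window and 29.5% in the genome were called in 1 library. A single region was called in all 6, against 9.74% in the genome. It lay at 66865184 to 66866801, near the start of the window, and it had no SMC3 peak and no ChIRP summit. Its percentiles were 97.5 and 98.1 with siDRR, 98.5 and 98.5 with siSmc3, and 88.5 and 98.1 in the control. It was the best-ranked ATAC region of the window in each of the 6 lists.

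In contrast to that constant region, 5 accessible regions called in both control libraries were missing from both libraries of 1 knockdown. They are named A to E along the chromosome. A lay at 66888318 to 66889149, B at 66893185 to 66895315, C at 67012785 to 67013777, D at 67127020 to 67128086 and E at 67192983 to 67194068.

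**Figure D4:**
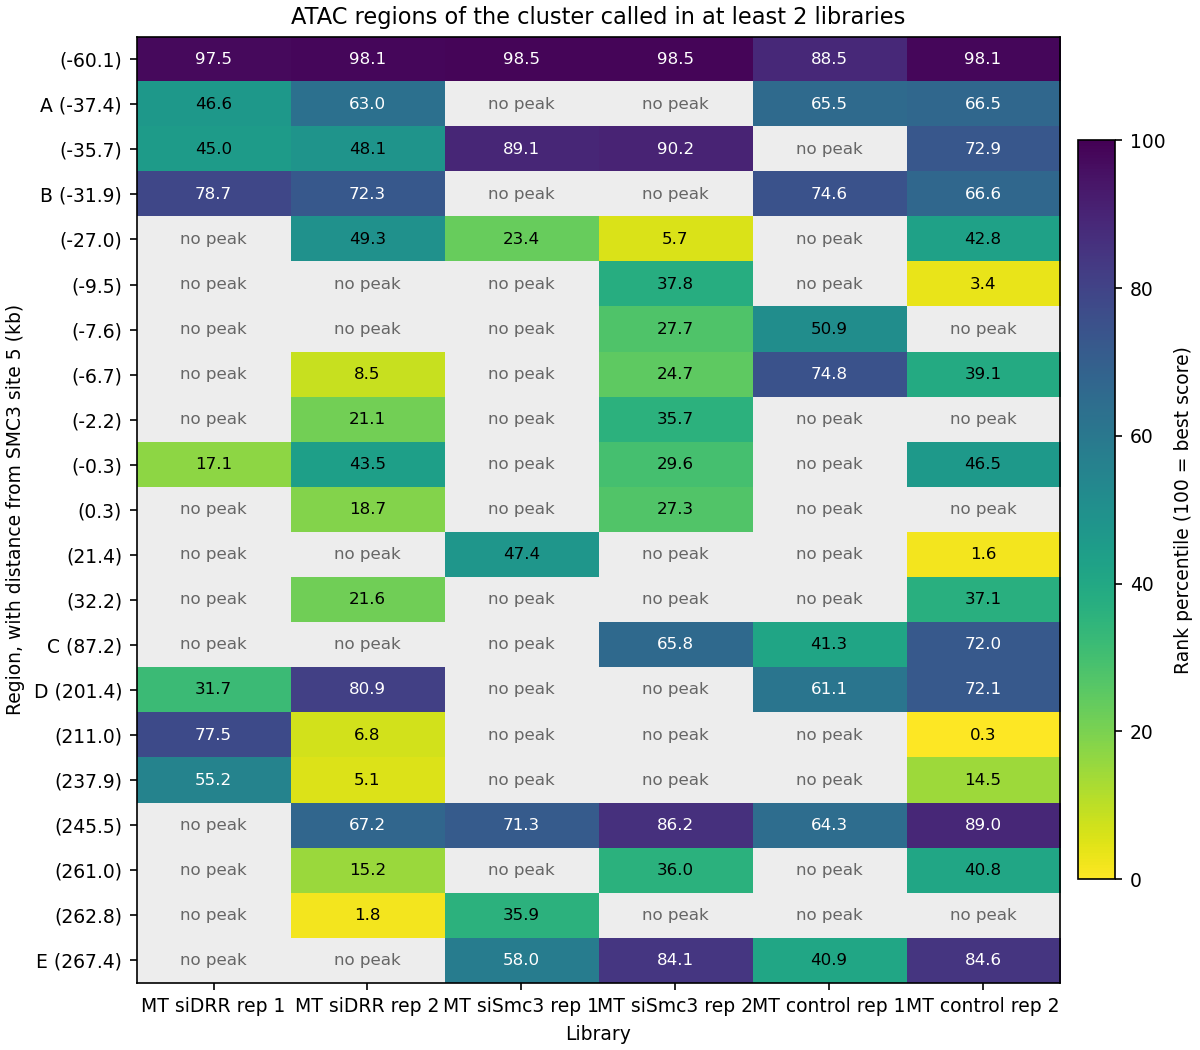
Rank percentiles of the 21 ATAC regions called in at least 2 of the 6 libraries (rows, with their distance from SMC3 site 5 in kb; letters are the regions named in the text), where grey means no peak. Regions A, B and D have peaks in the 4 siDRR and control libraries and in neither siSmc3 library; C and E have none in either siDRR library.

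Under siSmc3, regions A, B and D had no peak. All 3 were called under siDRR and in the control. Region A had percentiles of 46.6 and 63.0 with siDRR and 65.5 and 66.5 in the control. Region B, by its better peak, had 78.7 and 72.3 with siDRR and 74.6 and 66.6 in the control. Region D had 31.7 and 80.9 with siDRR and 61.1 and 72.1 in the control. The siSmc3 lists were longer than the control lists in each replicate.

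These 3 were 37.5% of 8 regions called in both control libraries, against 8.31% of 38630 in the genome; no test was run on 8 regions. None of 5 regions called in both siSmc3 libraries was absent from both control libraries, against 9.58% of 37951, and 3 of 41 regions were called in all 4 libraries, against 13.6% of 187972. A, B and D also counted as missing with the better-scoring 50% of each list and with lists of equal length (58137 peaks). The same held with a merging gap of 500 bp and with 50% of the region to be covered. Only the merging gap could have added a siSmc3 peak, so the other settings rest on the control calls. They stayed missing without any 1 library, but leaving out a library cannot undo a missing call.

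Region A sat close to a neighbour that both siSmc3 libraries called. That neighbour, at 66889841 to 66890923, had percentiles of 89.1 and 90.2 with siSmc3, 45.0 and 48.1 with siDRR, and 72.9 in replicate 2 of the control, with no peak in replicate 1 of the control. The nearest siSmc3 peaks to A were those of this neighbour, 997 and 692 bp away. Those nearest to B were the same peaks, 2318 and 2362 bp away. Region D stood alone, with the nearest siSmc3 peaks 19534 and 42765 bp off.

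Of the 3, region B lay on cohesin. SMC3 site 1 fell inside it, so that B was the 1 region called in both control ATAC libraries that met a region called in both MB SMC3 libraries. Of the 7 such MB regions of the window 1 met control accessible chromatin, against 29.5% of 25241 in the genome, and of the 5 regions called in both MT libraries 0 did, against 25.2% of 13885. In 3 of its 4 libraries B was called as 2 peaks, and in replicate 1 of the control as 1 peak of 2071 bp. The part under site 1 was the weaker one, at percentiles of 22.8 and 43.1 with siDRR and 44.6 in replicate 2 of the control.

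**Figure D5:**
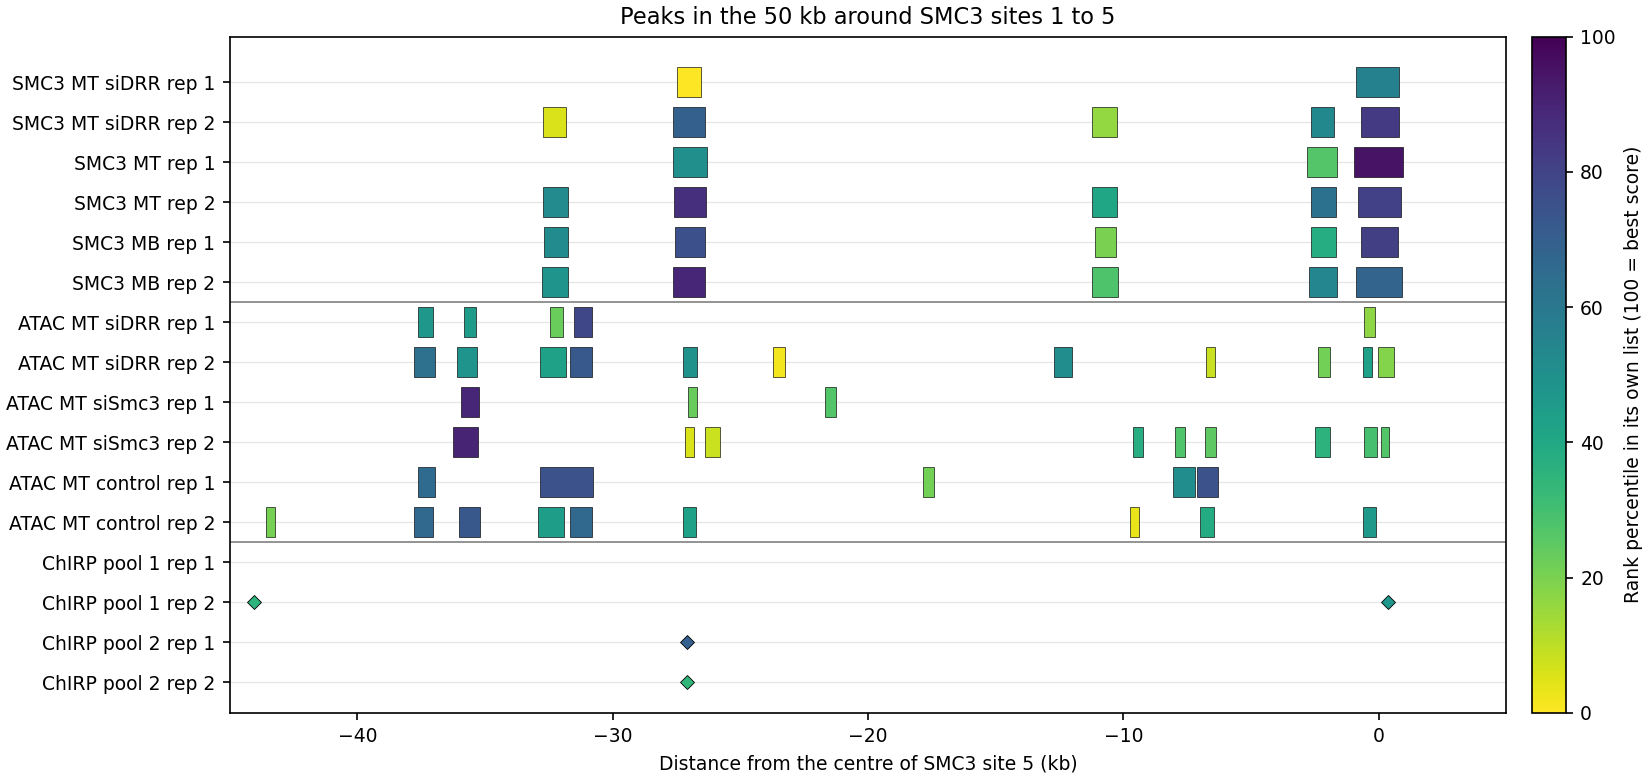
Peaks in 50 kb of the window, in kb from the centre of SMC3 site 5; bars are SMC3 and ATAC peaks at their own width, diamonds are ChIRP summits and colour is the rank percentile. Regions A (-37.4) and B (-31.9) carry bars in the siDRR and control rows and none in the siSmc3 rows, and a summit of each pool 2 library falls on SMC3 site 2 (-27.0).

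Under siDRR, regions C and E had no peak. C had percentiles of 65.8 in replicate 2 of siSmc3 and of 41.3 and 72.0 in the control. E had 58.0 and 84.1 with siSmc3, and 40.9 and 84.6 in the control. They were 2 of 8 regions called in both control libraries, against 5.85% of 38564 in the genome, and no test was run. None of 8 regions called in both siDRR libraries was absent from both control libraries, against 6.26% of 39632, and 4 of 33 regions were called in all 4 libraries, against 16.3% of 171839.

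Both C and E ceased to count as missing with the better-scoring 50% of each list, where 0 regions did. That cut removed their peaks in replicate 1 of the control, at 41.3 and 40.9, and it cannot add a siDRR peak. Both still counted as missing with lists of equal length, with a merging gap of 500 bp and with 50% of the region to be covered. No region was missing from all 4 knockdown libraries, but the share over the genome was not counted, so nothing is read from this. Both knockdowns share their 2 control libraries, so the values are given side by side, no overlap is drawn from them, and siDRR was not tested against siSmc3.

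One more accessible region stood high, at 67170675 to 67172445. It had 67.2 in replicate 2 of siDRR, 71.3 and 86.2 with siSmc3, and 64.3 and 89.0 in the control, with no peak in replicate 1 of siDRR. Beside site 1 in region B, ATAC peaks met sites 2, 4, 5, 7 and 8. At site 2 an ATAC peak was called in replicate 2 of siDRR at 49.3, in both siSmc3 libraries at 23.4 and 5.74, and in replicate 2 of the control at 42.8. At site 7 it was called in both siDRR libraries, at 55.2 and 5.1, and in replicate 2 of the control at 14.5, and in neither siSmc3 library. Sites 3, 6 and 9 met no ATAC peak in any library.

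Pool 2 of the DRR probes had summits at 2 positions of the window, and both replicates found both. The first pair of summits lay at 66899025 and 66899019, 6 bp apart, and the second at 67165920 and 67165894, 26 bp apart. Their percentiles were 70.0 and 34.6 for the first pair and 51.2 and 54.6 for the second. Pool 1 had no summit in its replicate 1, and the 10 in its replicate 2 came within 250 bp of neither pair. Such disagreement is common: 95.8% of 12511 regions called in both pool 2 libraries were found in neither pool 1 library. In the other direction the share was 96% of 3603 regions called in both pool 1 libraries, of which the window held 0. No region of the window was called in all 4 ChIRP libraries, against 0.104% of 97348. The nearest pool 1 regions lay 16483 and 26163 bp from those of pool 2, each widened by 250 bp around the summit.

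Of the 2 positions, the first fell within SMC3 site 2 and within the ATAC region there, and the second lay beside site 7, 1192 and 1166 bp from its edge. Site 2 was therefore the place where SMC3, ATAC and ChIRP of pool 2 met, and 5 of the 6 SMC3 libraries had it at a percentile of 50.3 or more. Of the 2 pool 2 regions 1 overlapped an SMC3 region called in both MT libraries, against 1.89% of 12510 in the genome, which is a single region. Neither overlapped an ATAC region called in both control libraries, against 5.13%. With the better-scoring 50% of each list the first position was no longer called in both pool 2 libraries, and with lists of equal length (3765 summits) neither position was.

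Pool 1 gave 1 more meeting place. Its replicate 2 had a summit at 66926481 inside site 5, at a percentile of 46.9, in an ATAC region called in replicate 2 of siDRR at 18.7 and in replicate 2 of siSmc3 at 27.3. A further ATAC region in site 5, at 66925502 to 66926046, was called at 17.1 and 43.5 with siDRR, at 29.6 in replicate 2 of siSmc3 and at 46.5 in replicate 2 of the control. The best-ranked pool 1 summit lay at 67134892, at a percentile of 94.3, 28644 bp from the nearest SMC3 region and 1575 bp from the nearest ATAC region called in 2 or more libraries. The other 8 had percentiles of 18.2 to 70.5. The input and LacZ probe libraries, which would show what the beads or probes bind by themselves, were not analysed here.

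The edges of the window cut through no peak. The last SMC3 region before it ended 20.7 kb from the edge, was called in 5 libraries and had a mean percentile of 70.8 in them. The first one after it began 45.4 kb off, was called in 1 library and stood at 1.42. Just inside lay site 1, 33.3 kb from the edge with a mean percentile of 39.7 in 4 libraries, and site 9, 9.45 kb from the edge with 31.4 in 3.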

How the data were processed

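The 16 lists, called per library, were used as deposited, in mm9 coordinates. Tools in the submitters' processing notes, listed without roles, are MACS2, MACS 1.4.2, Bowtie2 2.2.4, Bowtie 1.1.1, cutadapt 1.12, bcl2fastq 2.17.1 and CASAVA 1.8.2. The fifth column is a peak score made by the authors' caller and deposited with no stated scale. Its lowest value was 50 or just above in SMC3 lists and 30 in ATAC lists. Depth is unknown, and the input controls, thresholds, read filters and any shift of ATAC reads were not given in the sources used here. Inputs and LacZ libraries (10 of 26 samples) were not analysed here.

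Starts were made 1-based, peaks off the main chromosomes were dropped before ranking, and each ChIRP summit was given 250 bp to either side. Overlapping peaks (1 bp or more) of the libraries compared were joined to regions, and a single touching peak made a region called in that library. A region was missing from a group if neither of its libraries called it while both libraries of the other group did. Genome shares, not tests, stand beside these counts. Numbers of peaks per library were compared by exact permutation. Regions were named where 2 or more libraries called them, with values for the 5 best-ranked, those missing or new, and those where assays met. Alternatives were the better-scoring 50%, equal list length, a merging gap of 500 bp, 50% coverage, wider summits, and leaving out each library. The counting was tested on simulated lists. Members, width and lists were chosen with earlier results of these data known. Python 3.11.15, numpy 2.4.6 and pandas 2.3.3 were used.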

Additional observations from a re-analysis of the deposited data

How the results depend on the processing

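Which regions counted as missing or new rests on few calls. With the better-scoring 50% of each list, SMC3 regions called in all 4 libraries numbered 3 for MT against MB and 1 for MT siDRR against MT, ATAC regions missing under siDRR 0 and called in all 4 libraries 2, and pool 2 ChIRP regions missing from pool 1 numbered 1. The difference in ATAC peaks turned to -2 for siDRR and for siSmc3 against the control (p = 0.333 each, exact permutation test, the smallest possible). With equal list lengths, for MT against MB 1 SMC3 region was new and 2 were called in all 4, and 0 pool 2 regions were missing from pool 1. A merging gap of 500 bp gave 1 new ATAC region under siSmc3. Per 10000 peaks the difference in SMC3 peaks turned to 0.978 for MT against MB (p = 0.333, exact permutation test) and 0.0265 for MT siDRR against MT, and that in ChIRP summits to -0.197 for pool 1 against pool 2. With the better-scoring 50% of each list the differences in SMC3 peaks for MT against MB and in ChIRP summits were 0. The cause of these shifts was not tested.

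Leaving out 1 library at a time moved more. For MT against MB, missing SMC3 regions ranged over 0 to 2, shared ones over 5 to 7 and the difference in peaks over -2 to 0. For MT siDRR against MT these ranged over 0 to 2, 3 to 5 and -4 to 1. For siDRR ATAC, missing regions ranged over 2 to 6, new ones over 0 to 8, shared ones over 4 to 9 and the difference over -3 to 6. For siSmc3 ATAC these ranged over 3 to 9, 0 to 13, 3 to 5 and -2 to 7. New pool 1 ChIRP regions ranged over 0 to 10 and the difference over -2 to 8.

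With the replicate number as a block (exact sign-flip permutation test, smallest p 0.5 with 2 pairs), the differences in peaks were -1 for MT against MB, -1.5 for MT siDRR against MT, 2.5 for siSmc3 ATAC and 3 for pool 1 ChIRP, each at p = 1, and 1.5 for siDRR ATAC at p = 0.5. Differences between replicates correlated between the groups compared at 0.0613 to 0.299 over regions of the genome. The labels do not say what a shared replicate number stands for, and with 2 pairs the block was not adopted.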
